A study of Homo sapiens with 8 samples.

Results

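Genes that govern the passage of a cell through G1, 10 in all, were described across 4 conditions: the cyclins CCND1, CCND3, CCNE1 and CCNE2, the kinase CDK6, the CDK inhibitors CDKN1A (p21), CDKN1B (p27) and CDKN2C (p18), the pocket protein RB1 and the transcription factor MYC. They were chosen by name, with earlier results of these data known, and all 10 were among the 13307 genes measured. The mRNA came from Panc-1, a cell line of human pancreatic duct carcinoma. The cells were transfected with control siRNA (siNC) or siRNAs against PHF13 (siPHF13), a reader of the H3K4me3 mark on chromatin. They were then left untreated or kept in 10 ng/ml TGFβ for 48 h. Each of the groups siNC, siPHF13, siNC + TGFβ and siPHF13 + TGFβ held 2 libraries, and the cells of all groups were transfected with siRNA. The labels do not say that the libraries of a group came from separate cultures, so that the p-values measure only the spread between these libraries.

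D-type cyclins bind CDK4 or CDK6 in early G1 and start the phosphorylation of RB1, and E-type cyclins with CDK2 complete it, which frees E2F factors to switch on the genes of DNA replication. The CIP/KIP inhibitors p21 and p27 act on cyclin-CDK2 complexes and also bind cyclin D complexes, whereas p18 of the INK4 family binds CDK4 and CDK6 directly. MYC drives growth and ribosome production, and TGFβ halts epithelial cells in G1 in part through CDK inhibitors and lower MYC, a response that many carcinomas have lost.

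Values are normalized counts, that is reads on a gene divided by a size factor of the library. Between 39196214 and 46700806 reads per library fell on genes. The targeted gene PHF13 stood at 1804 and 1662 in siNC cells, 524.2 and 558.3 in siPHF13 cells, 1586 and 1709 in siNC cells with TGFβ and 512.8 and 529.4 in siPHF13 cells with TGFβ, in keeping with the labels of every library. All 7 markers of duct carcinoma cells were measured, with KRT8 between 70722 and 120045 and VIM between 160328 and 202482, while KRT7, EPCAM and CDH1 stayed under 500. Of 14 markers of other cell types, 12 were not analysed here. The other two were CD68 (6137 to 13400), which was higher in all 4 siPHF13 libraries than in the siNC libraries, and COL1A1, which ranged from 1887 to 3433 without TGFβ and from 4691 to 16414 with it, and was lower in both siPHF13 groups (1922 and 1887 without TGFβ, 4909 and 4691 with it) than in siNC cells (3345 and 3433, and 16414 and 15334). Their part in the results below was not tested.

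The promoters of CDKN1A and CCNE1 are shown because CDKN1A had the largest fall and CCNE1 the largest rise of the 10 genes upon PHF13 depletion in TGFβ-treated cells. RefSeq promoters (GRCh38.p14) were found for 7 of the 10 genes, and those of CCND1, CCNE2 and MYC had no entry. The sequences below are the 250 bases before the transcription start, located on GRCh37 by an exact match. That of CDKN1A is chr6:36646241-36646490 (plus strand) and lies inside the annotated gene (chromosome 6, 36644237 to 36655114), which starts further upstream. That of CCNE1 is chr19:30302648-30302897 (plus strand), directly before the annotated gene (chromosome 19, 30302898 to 30315219). Capitals mark the GC box GGGCGG, or its reverse complement CCGCCC.
CDKN1A: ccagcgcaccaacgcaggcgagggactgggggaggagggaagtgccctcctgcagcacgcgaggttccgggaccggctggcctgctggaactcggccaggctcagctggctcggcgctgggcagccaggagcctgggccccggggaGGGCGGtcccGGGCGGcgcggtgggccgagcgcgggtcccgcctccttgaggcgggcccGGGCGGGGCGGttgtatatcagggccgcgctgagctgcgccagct
CCNE1: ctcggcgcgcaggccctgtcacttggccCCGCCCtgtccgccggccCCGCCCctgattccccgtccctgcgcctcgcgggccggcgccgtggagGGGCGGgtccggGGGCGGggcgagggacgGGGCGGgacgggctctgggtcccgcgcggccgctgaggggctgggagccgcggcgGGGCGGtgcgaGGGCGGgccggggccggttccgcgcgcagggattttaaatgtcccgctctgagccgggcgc
CDKN1A held 4 GC boxes, which began at positions -104, -94, -45 and -40 from the start, and CCNE1 held 7, of which 5 were on the plus strand. The bases were 76.4% and 81.2% G or C, and 45% of 35116 RefSeq promoters of 300 bases held at least 1 GC box on either strand. The CRE TGACGTCA, the E box CACGTG and the SMAD palindrome GTCTAGAC were not found in either promoter on either strand (each is its own reverse complement). They occurred in 1.85%, 7.26% and 0.202% of all promoters. A match to these letters is no evidence of binding.

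**Figure D1:**
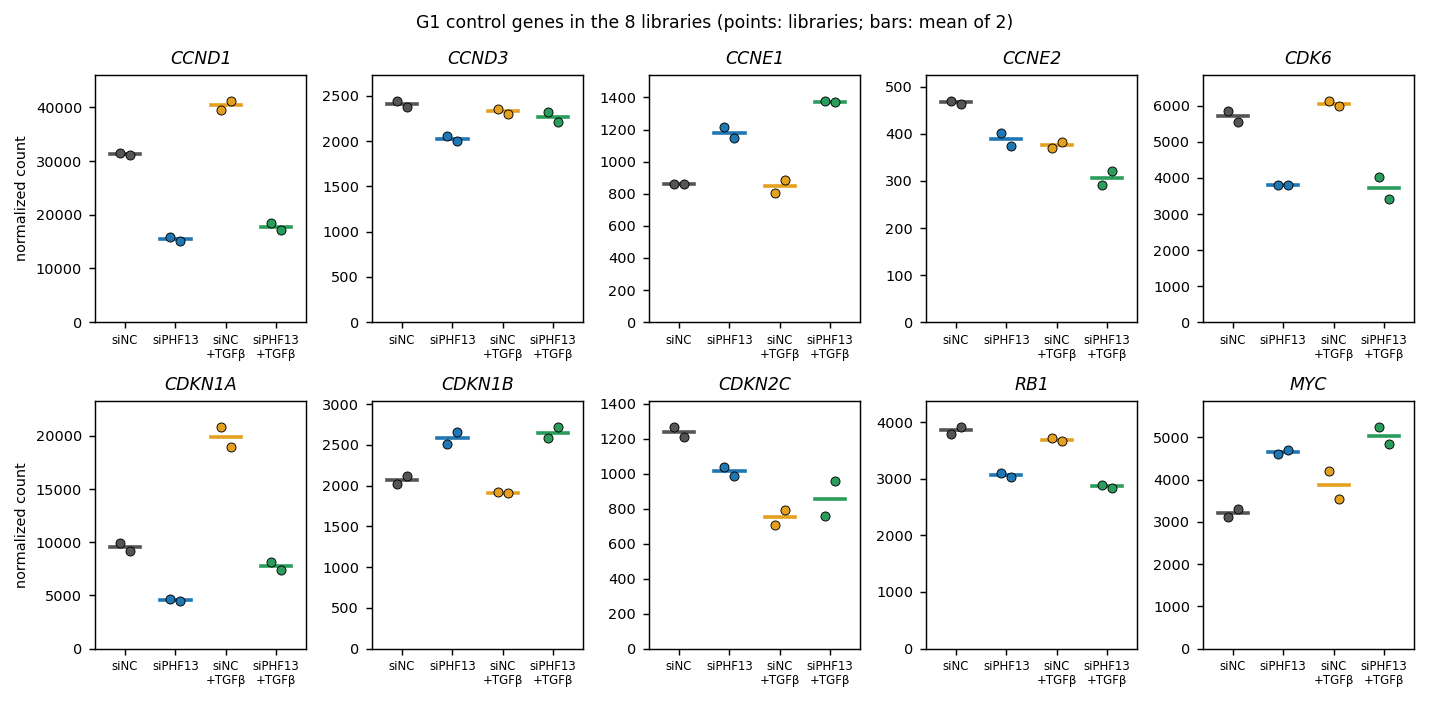
Normalized counts (vertical axes, each from 0) of the 10 genes in the 4 groups (horizontal axes), where each point is a library and each bar the mean of 2. CCND1, CDK6, CDKN1A and RB1 lay lower, and CCNE1, CDKN1B and MYC higher, in all 4 siPHF13 libraries than in all 4 siNC libraries.

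PHF13 depletion lowered CCND1, CDK6 and CDKN1A in both untreated and TGFβ-treated cells, and raised CCNE1 past the threshold in TGFβ-treated cells. A gene was called when limma gave a Benjamini-Hochberg adjusted p under 0.05 over all 13307 genes and the log2 difference exceeded 0.58 in size. In untreated cells 3 of the 10 genes were called, 0 higher and 3 lower, against 18.4% of all genes (7.95% higher and 10.4% lower). In TGFβ-treated cells 4 were called, 1 higher and 3 lower, against 20.5% of all genes (8.81% higher and 11.7% lower). The adjusted p alone was passed by 8 of the 10 genes in untreated cells, where 47.4% of all genes passed it, and by 7 in treated cells, where 50.4% did. The 4 siPHF13 libraries did not overlap the 4 siNC libraries for 7 of the 10 genes, against 47.4% of all genes. With 2 libraries against 2, the groups did not overlap for 10 of the genes upon depletion and for 8 upon depletion with TGFβ, but neither did they for 77.3% and 71.7% of all genes. For TGFβ in siNC and siPHF13 cells these counts were 9 and 8, against 60.2% and 39.8% of all genes.

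TGFβ changed fewer of them. In siNC cells 2 of the 10 genes were called, CDKN1A higher and CDKN2C lower, against 4.79% of all genes (3.27% higher and 1.52% lower). In siPHF13 cells CDKN1A alone was called, as higher, against 1.35% of all genes (1.13% higher). In all, 5 of the 10 genes were called in at least 1 of the 4 comparisons, against 27.3% of all genes, and 4 passed the adjusted p alone for TGFβ in siNC cells (15.9% of all genes) and 1 in siPHF13 cells (3.07%). The comparisons share libraries in pairs and are not independent. Over the 10 genes the median size of the log2 difference was 0.39 and 0.43 for depletion without and with TGFβ, and 0.19 and 0.18 for TGFβ in siNC and siPHF13 cells. Over all genes these medians were 0.29, 0.31, 0.15 and 0.10. From bulk RNA, fewer cells that express a gene and less RNA of it per cell cannot be told apart, and this holds for every value given here.

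**Figure D2:**
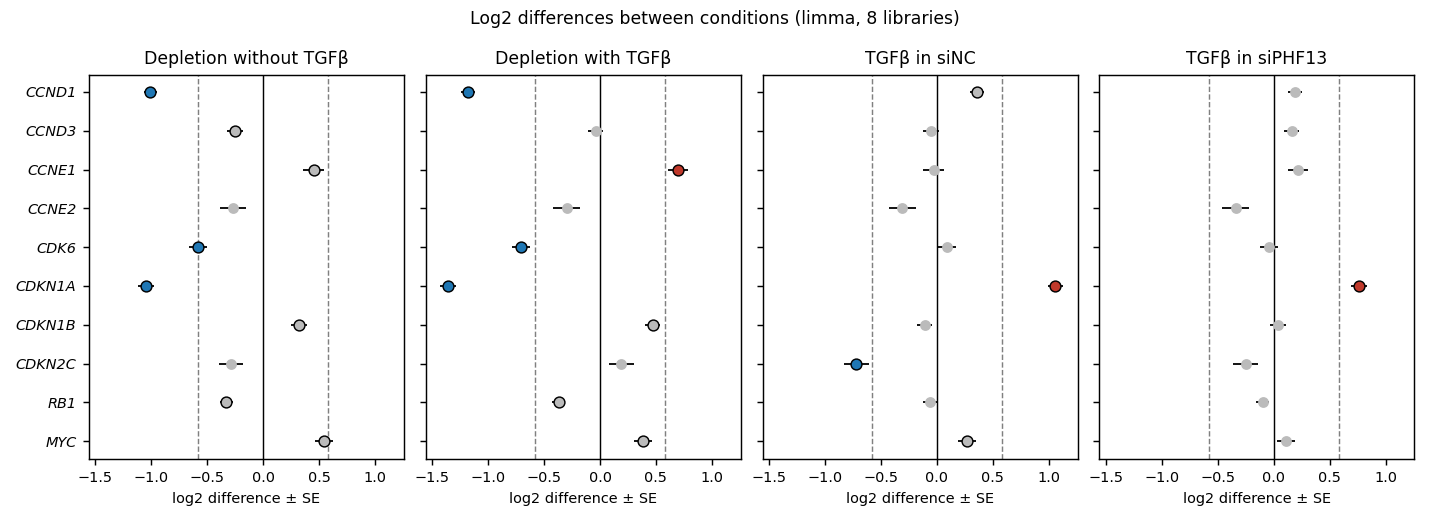
Log2 differences (horizontal axis, ± standard error, limma over 8 libraries) of the 10 genes (vertical axis) in 4 comparisons. Blue marks genes called lower, red genes called higher, a black outline an adjusted p under 0.05 and the dashed lines a log2 difference of 0.58 in either direction: CCND1, CDK6 and CDKN1A are blue in both depletion panels, and CDKN1A is red in both TGFβ panels.

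CCND1 (GRCh37, chromosome 11, 69455924 to 69469242, plus strand) encodes cyclin D1, the D-type cyclin most often amplified in carcinomas. Its counts were at the 99th percentile of all genes in siNC cells. It stood at 31578 and 31165 in siNC cells, 15927 and 15203 in siPHF13 cells, 39541 and 41152 in siNC cells with TGFβ and 18403 and 17215 in siPHF13 cells with TGFβ. The siPHF13 libraries all lay far below the siNC libraries, with or without TGFβ. Depletion brought CCND1 to 49.6% of its control level (log2 difference -1.01, SE 0.06, adjusted p = 2.31e-08) and, with TGFβ, to 44.1% (-1.18, SE 0.06, adjusted p = 5.45e-09). In siNC cells TGFβ raised it by 0.36 on the log2 scale (adjusted p = 0.00082), under the fold threshold. In siPHF13 cells the difference was 0.19 and did not pass the test (adjusted p = 0.116), except without siPHF13 + TGFβ replicate 2 (0.24, adjusted p = 0.0263). The level of siPHF13 + TGFβ cells was below that of untreated siNC cells (-0.82, adjusted p = 1.14e-07).

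CCND3, which encodes cyclin D3 (chromosome 6, 41902672 to 42018095, minus strand), varied little across the groups. Its values were 2442 and 2375 in siNC cells, 2054 and 2001 in siPHF13 cells, 2355 and 2301 in siNC cells with TGFβ and 2321 and 2207 in siPHF13 cells with TGFβ. Only siPHF13 stood apart, below the other 6 libraries. The difference from siNC was -0.25 (SE 0.07, adjusted p = 0.0092) and lost its significance without siNC replicate 1 (adjusted p = 0.0859) or siPHF13 replicate 2 (adjusted p = 0.0575). With TGFβ the depletion difference was -0.04 (adjusted p = 0.657) and the libraries overlapped. CCND2, the remaining D-type cyclin, was scarce, with means of 97.5 in siNC and 26.7 in siPHF13, and fell upon depletion, with log2 differences of -1.85 (adjusted p = 0.00161) without and -1.65 (adjusted p = 0.00318) with TGFβ.

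CDK6 (chromosome 7, 92234235 to 92465887, minus strand) encodes one of both kinases that D-type cyclins activate. It stood at 5869 and 5553 in siNC cells, 3816 and 3819 in siPHF13 cells, 6133 and 5991 in siNC cells with TGFβ and 4020 and 3414 in siPHF13 cells with TGFβ. The lowest siNC library, at 5553, was well above the highest siPHF13 library, at 4020. Depletion brought CDK6 to 66.9% of control (-0.58, SE 0.08, adjusted p = 3.06e-05) and to 61.1% with TGFβ (-0.71, SE 0.08, adjusted p = 4.46e-06). The first of these lay at the fold threshold itself and was not called with a pseudocount of 5, with TMM scaling or without siNC replicate 1 (-0.54), although the adjusted p held. CDK4, the partner kinase, went the other way: its means were 3689 in siNC and 4998 in siPHF13 (0.44, adjusted p = 0.00116, not called), and 2951 and 4671 with TGFβ (0.66, adjusted p = 3.52e-05, called higher).

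CCNE1 and CCNE2 encode the E-type cyclins, which activate CDK2 late in G1. CCNE1 stood at 863.1 and 863.2 in siNC cells, 1214 and 1147 in siPHF13 cells, 806.4 and 885.6 in siNC cells with TGFβ and 1377 and 1369 in siPHF13 cells with TGFβ. The lowest siPHF13 library, at 1147, was above the highest siNC library, at 885.6. Depletion raised CCNE1 by 0.45 without TGFβ (SE 0.09, adjusted p = 0.000839), under the fold threshold, and by 0.70 with it (SE 0.09, adjusted p = 1.95e-05), where it was the one gene of the 10 called higher. TGFβ left it at -0.03 in siNC cells (adjusted p = 0.87) and 0.22 in siPHF13 cells (adjusted p = 0.262).

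CCNE2 did not pass the test in any of the 4 comparisons. Its values were 469.5 and 464.0 in siNC cells, 401.8 and 374.9 in siPHF13 cells, 370.9 and 382.6 in siNC cells with TGFβ and 291.5 and 321.5 in siPHF13 cells with TGFβ. The differences were -0.27 and -0.30 for depletion (adjusted p = 0.093 and 0.0586) and -0.31 and -0.34 for TGFβ (adjusted p = 0.113 and 0.203). Between the groups that differed in both, siPHF13 + TGFβ and siNC, the difference was -0.61 (adjusted p = 0.00103).

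CDKN1A encodes p21, a direct target of p53 and of the SMAD factors. It stood at 9884 and 9137 in siNC cells, 4686 and 4492 in siPHF13 cells, 20796 and 18979 in siNC cells with TGFβ and 8131 and 7401 in siPHF13 cells with TGFβ. The 4 groups did not overlap, and each level differed from its neighbour in the order. TGFβ raised CDKN1A to 209% of its level in siNC cells (1.06, SE 0.07, adjusted p = 2.42e-07) and to 169% in siPHF13 cells (0.76, SE 0.07, adjusted p = 2.11e-05). Depletion brought it to 48.3% (-1.05, SE 0.07, adjusted p = 7.93e-08), and to 39% with TGFβ (-1.36, SE 0.07, adjusted p = 6.71e-09). Treated siPHF13 cells thus held less CDKN1A than untreated siNC cells, by 0.29 on the log2 scale (adjusted p = 0.00324).

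CDKN1B (chromosome 12, 12838432 to 12875303, plus strand) encodes p27, the inhibitor that accumulates in resting cells, mostly through the control of its protein. Its values were 2016 and 2116 in siNC cells, 2515 and 2657 in siPHF13 cells, 1924 and 1904 in siNC cells with TGFβ and 2583 and 2716 in siPHF13 cells with TGFβ. They were higher in every siPHF13 library than in any siNC library. Depletion raised CDKN1B by 0.32 (SE 0.07, adjusted p = 0.00195) and by 0.47 with TGFβ (SE 0.07, adjusted p = 9.83e-05), both under the fold threshold. TGFβ itself gave -0.11 and 0.04 (adjusted p = 0.347 and 0.89).

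CDKN2C (chromosome 1, 51426417 to 51440306, plus strand) encodes p18 and was the one gene of the 10 whose 4 TGFβ libraries did not overlap the 4 others, against 7.67% of all genes. Its values were 1265 and 1208 in siNC cells, 1040 and 987.4 in siPHF13 cells, 706.1 and 794.0 in siNC cells with TGFβ and 757.8 and 956.7 in siPHF13 cells with TGFβ. In siNC cells TGFβ brought it to 60.6% (-0.72, SE 0.11, adjusted p = 0.000586). In siPHF13 cells the difference was -0.25 (adjusted p = 0.343), with a wide gap between the libraries of siPHF13 + TGFβ. It was -0.42 (adjusted p = 0.0426) without siPHF13 + TGFβ replicate 2 and -0.08 (adjusted p = 0.796) without replicate 1. Depletion gave -0.29 without TGFβ (adjusted p = 0.0514), which passed the test in a fit of those 4 libraries alone (adjusted p = 0.00645) or without replicate 1 (0.0146) or 2 (0.0156) of siPHF13 + TGFβ. With TGFβ it gave 0.19 (adjusted p = 0.192), which became 0.35 (adjusted p = 0.0149) without siPHF13 + TGFβ replicate 1, 0.02 (adjusted p = 0.919) without replicate 2 and 0.10 (adjusted p = 0.593) without siNC + TGFβ replicate 1.

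RB1 (chromosome 13, 48877880 to 49173572, plus strand), whose product holds E2F factors in check, stood at 3797 and 3907 in siNC cells, 3095 and 3032 in siPHF13 cells, 3724 and 3658 in siNC cells with TGFβ and 2890 and 2836 in siPHF13 cells with TGFβ. The siPHF13 libraries were all lower than the siNC libraries. Depletion lowered RB1 by a small amount, -0.33 without TGFβ (SE 0.06, adjusted p = 0.000698) and -0.37 with it (SE 0.06, adjusted p = 0.000275), both under the fold threshold. The response to TGFβ was -0.06 in siNC and -0.10 in siPHF13 cells, and neither passed the test (adjusted p = 0.58 and 0.56).

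MYC stood at 3107 and 3302 in siNC cells, 4613 and 4688 in siPHF13 cells, 4205 and 3535 in siNC cells with TGFβ and 5234 and 4832 in siPHF13 cells with TGFβ. The siPHF13 libraries were again separate from the siNC libraries, here on the higher side. Depletion raised MYC by 0.54 (SE 0.08, adjusted p = 0.000112) and by 0.38 with TGFβ (SE 0.08, adjusted p = 0.00143), both under the fold threshold. TGFβ raised it in siNC cells by 0.27 (SE 0.08, adjusted p = 0.0391), but this was lost in 6 of 15 alternatives. Without siNC + TGFβ replicate 1 the difference was 0.14 (adjusted p = 0.371). The adjusted p was 0.276 and 0.119 without siNC replicates 1 and 2, 0.0605 and 0.0602 without siPHF13 replicates 1 and 2, and 0.0553 with edgeR on recovered reads. In siPHF13 cells the difference was 0.11 (adjusted p = 0.621).

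None of the 10 genes passed the test of a different response to TGFβ in siNC and siPHF13 cells (interaction, 0 of 10 called by limma, against 0.308% of all genes). Of all genes 0.0601% were called higher and 0.248% lower in this test. The adjusted p alone was also passed by 0 of the 10, against 0.413% of all genes. Of the 10 genes, CDKN2C and CDKN1A had the largest differences in size. The rise of CDKN1A was smaller after depletion by 0.31 on the log2 scale (SE 0.10, adjusted p = 0.274). For CDKN2C the difference was 0.47 (SE 0.16, adjusted p = 0.306). Both passed the test without siPHF13 + TGFβ replicate 1, CDKN1A at -0.37 (adjusted p = 0.0426) and CDKN2C at 0.64 (adjusted p = 0.0271). The libraries of that group differed from each other more than any other pair, with a variance 23.3 times that of counting, against 3.64 to 11.5 in the other groups.

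Per kilobase of transcript, CCND1 was the most abundant in siNC cells at 7402 normalized counts per kb, followed by CDKN1A at 4492. CDKN2C (1243) and CCND3 (1189) came next, then MYC (861.2), CDKN1B (856.9) and RB1 (807.8). CDK6 (489.7), CCNE1 (441.7) and CCNE2 (174.6) were lowest. Lengths were those of the canonical GENCODE transcripts, and transcripts of other lengths would change these values.

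Ratios of 4 pairs of related genes describe the balance between them. Per kilobase, CCND1 exceeded CCND3 6.18- and 6.27-fold in siNC cells, 3.71- and 3.63-fold in siPHF13 cells, 8.03- and 8.55-fold in siNC cells with TGFβ and 3.79- and 3.73-fold in siPHF13 cells with TGFβ. The ratio was thus almost the same in all siPHF13 libraries, whether or not TGFβ was given. CCNE1 exceeded CCNE2 2.52- and 2.55-fold in siNC cells, 4.14- and 4.19-fold in siPHF13 cells, 2.98- and 3.17-fold in siNC cells with TGFβ and 6.47- and 5.83-fold in siPHF13 cells with TGFβ.

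CDKN1A exceeded CDKN1B 5.58- and 4.92-fold in siNC cells, 2.12- and 1.93-fold in siPHF13 cells, 12.3- and 11.4-fold in siNC cells with TGFβ and 3.58- and 3.1-fold in siPHF13 cells with TGFβ. The ratio of CDK6 to CDK4, a pair added after the values had been seen, was 0.258 and 0.237 in siNC cells, 0.12 and 0.124 in siPHF13 cells, 0.363 and 0.299 in siNC cells with TGFβ and 0.15 and 0.108 in siPHF13 cells with TGFβ. In every pair the 4 siPHF13 libraries were separate from the 4 siNC libraries, with log2 ratios that differed by -0.95 (CCND1 to CCND3), 0.86 (CCNE1 to CCNE2), -1.60 (CDKN1A to CDKN1B) and -1.20 (CDK6 to CDK4). Every pair held a gene whose siPHF13 libraries were already separate from the siNC libraries (CCND1, CCNE1, CDKN1A with CDKN1B, and CDK6). The separation of the ratios is therefore no further result. No test was made of these ratios, since the values of their genes were known when the pairs were set.

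**Figure D3:**
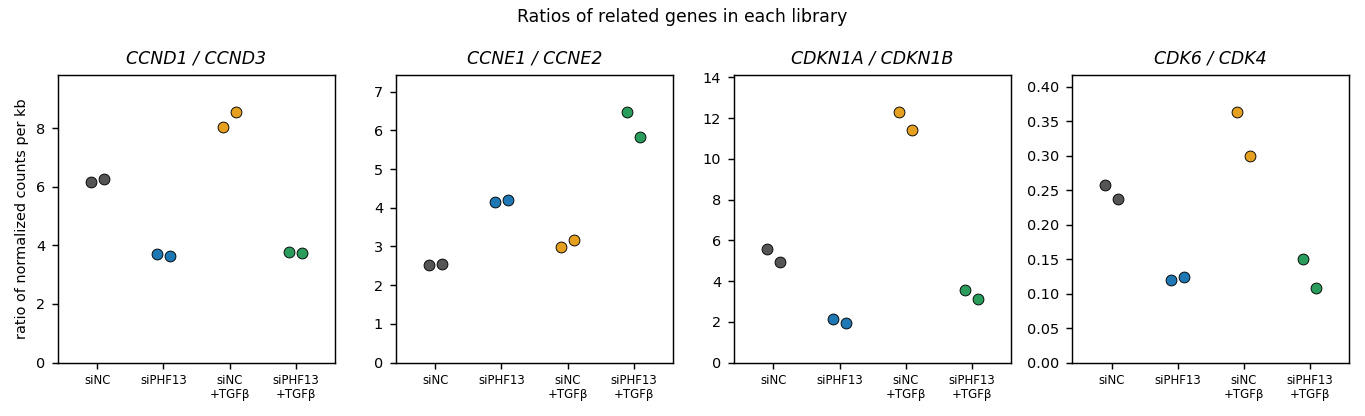
Ratio of normalized counts per kb (vertical axes, each from 0) of 4 pairs of related genes, with 1 point per library in the 4 groups (horizontal axes). The CCND1 to CCND3 ratio is between 3.63 and 3.79 in the siPHF13 libraries and between 6.18 and 8.55 in the siNC libraries.

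Other genes of the pathway are counted below against the share of all genes called, which was 18.4% for depletion and 20.5% for depletion with TGFβ, 4.79% for TGFβ in siNC cells and 1.35% in siPHF13 cells. The adjusted p alone was passed by 47.4%, 50.4%, 15.9% and 3.07% of all genes in the same order. Other cyclins, kinases and proteins that act on them were CCND2, CCNA2, CDK2, CDK4, CDK7, CCNH, MNAT1, CDC25A and CDC37 (CCNA1 was not analysed here). Of these 9, CCND2 was called lower upon depletion in both settings, CDK4 was called higher with TGFβ, and no other gene was called. None of the genes CDKN1C, CDKN2D and CDKN3, grouped by their CDKN names, was called in any of the 4 comparisons (CDKN2A and CDKN2B were not analysed here). At the adjusted p alone 1 of the 3, CDKN3, passed for TGFβ in siNC cells (-0.54, adjusted p = 0.00575) and for depletion with TGFβ (0.39, adjusted p = 0.0129).

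Of 17 pocket proteins and E2F factors with their partners, depletion changed 1 in untreated and 3 in treated cells, against 18.4% and 20.5% of all genes. TFDP2, a dimer partner of E2F, fell by 0.73 (adjusted p = 2.53e-05) and by 0.59 with TGFβ (adjusted p = 0.000133). E2F1, an activator, and E2F8, a repressor, were higher upon depletion in treated cells, by 0.76 (adjusted p = 8.72e-06) and 0.69 (adjusted p = 0.000152). TGFβ lowered E2F2 in siNC cells by 0.90 (adjusted p = 0.000308) and E2F8 by 0.70 (adjusted p = 0.000612), and 0 of the 17 were called for TGFβ in siPHF13 cells, where 1 (E2F7, 0.36, adjusted p = 0.0294) passed the adjusted p alone.

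Targets of E2F at the G1/S transition, the genes that RB1 restrains, were lower with TGFβ in siNC cells. All 21 measured (UHRF1 was not analysed here) had a difference below 0 there, 17 passed the adjusted p (15.9% of all genes) and 2 were called lower (1.52% of all genes): TYMS, which makes thymidylate (-0.73, adjusted p = 0.000194), and the thymidine kinase TK1 (-0.58, adjusted p = 0.000804), which lay at the fold threshold. The median was -0.40, against -0.01 over all genes. In siPHF13 cells 18 of the 21 also had a difference below 0 for TGFβ and 3 had one above it, but 0 were called and 0 passed the adjusted p. Between 3 and 9 lay above 0 when each library was left out in turn. The median in siPHF13 cells was -0.09 (-0.16 without replicate 2 and -0.01 without replicate 1 of siPHF13 + TGFβ). The difference between both responses was above 0 for 21 of 21 genes, with a median of 0.32 against -0.01 over all genes. The median of the 21 ranged from 0.19 to 0.40 when each library was left out in turn. All 21 were measured in the same 8 libraries and are not replicates, so that their shared direction is a description and was not tested. The difference was called for 0 of the 21, and 1 passed the adjusted p, the helicase subunit MCM2 (0.43, adjusted p = 0.0485). These 3 sets of values share libraries and are not independent. Depletion in treated cells raised 2 of the 21, the replication licensing factor CDT1 (0.70, adjusted p = 3.08e-05) and CDC45 (0.72, adjusted p = 4.89e-05), and 12 passed the adjusted p (50.4% of all genes), with a median of 0.23. That median was 0.16 without siPHF13 + TGFβ replicate 2 and 0.36 without replicate 1. In untreated cells 0 were called and 8 passed the adjusted p (47.4% of all genes), with a median of -0.02.

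Among the partners and antagonists of MYC, 12 were measured (MYCN was not analysed here). MXD1, which competes with MYC for its partner MAX, fell upon depletion by 0.71 (adjusted p = 2.6e-05) and by 0.74 with TGFβ (adjusted p = 1.49e-05). MYCBP fell by 0.88 (adjusted p = 7.65e-05) and 0.64 (adjusted p = 0.000923). MYCL, a scarce relative of MYC with a mean of 9.6 in siNC + TGFβ and 40.7 in siPHF13 + TGFβ, was called higher in treated cells (2.03, adjusted p = 0.00696). TGFβ changed 0 of the 12 in either cell group, and 1 passed the adjusted p in siNC cells and 0 in siPHF13 cells.

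Of 25 MYC targets of ribosome assembly and growth, depletion raised 1 in untreated and 3 in treated cells, against 7.95% and 8.81% of all genes, and lowered 0. NOLC1, a nucleolar chaperone, had means of 6091 in siNC and 15870 in siPHF13 (1.38, adjusted p = 1.8e-09) and of 5407 and 15197 with TGFβ (1.49, adjusted p = 9.31e-10). The rRNA methyltransferase FBL and the ribosome assembly factor WDR74 both rose by 0.71 in treated cells (adjusted p = 1.66e-06 and 3.44e-05). NOP56, a core protein of box C/D particles, was lower by 0.57 in untreated cells (adjusted p = 1.05e-05), under the fold threshold. The adjusted p alone was passed by 13 of the 25 in untreated and 15 in treated cells, near the 47.4% and 50.4% of all genes. The medians were 0.22 in both settings, against -0.00 and 0.00 over all genes. For TGFβ 0 of the 25 were called in either cell group, and 1 and 0 passed the adjusted p.

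**Figure D4:**
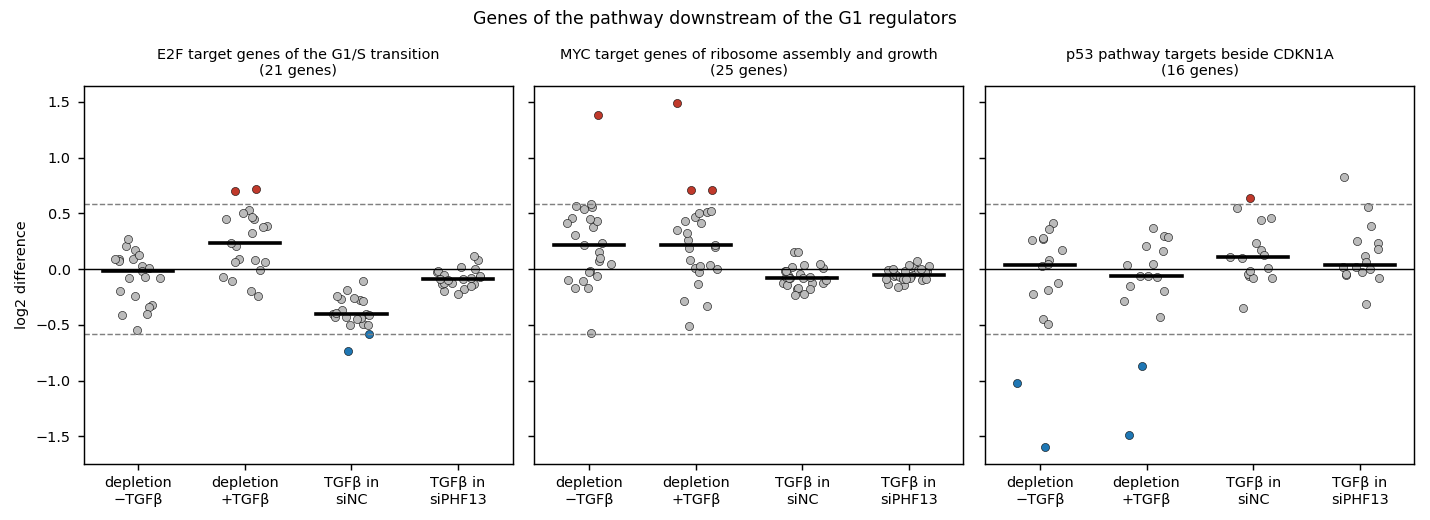
Log2 differences (vertical axis) of 21 E2F targets, 25 MYC targets and 16 p53 targets in 4 comparisons (horizontal axis), where each point is a gene, black bars are medians, red and blue mark genes called higher and lower, and dashed lines a log2 difference of 0.58 in either direction. The E2F targets all lie below 0 for TGFβ in siNC cells, with a median of -0.40. In siPHF13 cells 18 of them lie below 0 and 3 above it, with a median of -0.09.

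The share of p53 targets other than CDKN1A that was called lower was near that of all genes (10.4% without and 11.7% with TGFβ). Of 16 measured, depletion lowered 2 in untreated cells, TP53INP1 (-1.59, adjusted p = 2.65e-07) and BTG2 (-1.02, adjusted p = 0.00799), and 2 in treated cells, TP53INP1 (-1.49, adjusted p = 4.08e-07) and TP53I3 (-0.87, adjusted p = 8.85e-05). The medians were 0.04 and -0.06. DDB2, a DNA repair factor, was the one gene of the 16 that TGFβ raised past the threshold in siNC cells (0.64, adjusted p = 0.000136). MDM2, the ligase that destroys p53, was lower upon depletion by 0.45 (adjusted p = 0.000275) and 0.43 with TGFβ (adjusted p = 0.000397), under the fold threshold.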

How the data were processed

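mRNA of 8 Panc-1 libraries, 2 in each of 4 groups, was analysed. The authors trimmed reads with Trim Galore 0.4.1, mapped them with STAR 2.7.0 to hg19 (GRCh37), counted them per gene with HTSeq 0.12.4 and divided the counts by DESeq2 size factors. The deposited values are this signal, normalized counts of 13307 genes. Tables of the authors' own comparisons (log2 fold changes and p-values) were not used. The annotation release and the strand setting are not given in the sources used here, so that reads of overlapping or antisense genes cannot be told apart. All values (100% in each library, within 0.1 of a read) were whole multiples of 1 read, which gave the depth. The step of siPHF13 replicate 1, 0.995, lay too close to 1 for its reads to be recovered. Replicates differed by more than counting noise.

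The 10 genes and the lists were chosen with earlier results of these data known. One limma fit (3.58.1, R 4.3.3, trended prior variance) of log2 values with a pseudocount of 1 took in the 8 libraries without a replicate block and gave every difference, with two-sided p-values adjusted by Benjamini-Hochberg over 13307 genes. No gene fell short of the low-value filter, 10 normalized counts in 2 libraries. Calls needed an adjusted p below 0.05 and a log2 difference beyond 0.58 in size, the thresholds of the study's methods. Named were all 10 genes, called list genes (up to 6 a list, other genes where singled out after their values were seen), and for each called member the 3 genes of most like pattern with a mean of at least 100. The fit was tested on simulated data for depletion without and with TGFβ and for TGFβ in siNC cells. The simulation gave every gene and group the same excess of spread over counting noise, unlike these libraries. The interaction and the response to TGFβ in siPHF13 cells were not part of that test. Alternatives were a pseudocount of 5, no minimum, TMM scaling (edgeR 4.0.16), fits restricted to the compared groups, a replicate block, edgeR and DESeq2 1.42.0 on recovered reads of 6 libraries, no fold threshold and each library left out. Crossed replicate numbers, list medians with a library left out and the CDK6 to CDK4 ratio were added after seeing the data.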

Additional observations from a re-analysis of the deposited data

How the results depend on the processing

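With no threshold on the fold change, 8 of the 10 genes passed for depletion and 7 for depletion with TGFβ, and 4 passed for TGFβ in siNC cells. Of all genes 47.4%, 50.4% and 15.9% passed in the same order. Leaving out each library in turn gave between 0 and 1 called gene for the interaction (1, CDKN2C, without siPHF13 + TGFβ replicate 1), and among all genes between 12 and 111 called for the interaction against 41, the 111 without that library. Differences that changed sign were small in every case: CCNE1 for TGFβ in siNC cells (-0.10 to 0.04 with a library left out), CDK6 and CDKN1B for TGFβ in siPHF13 cells (-0.16 to 0.07, and -0.00 to 0.07) and CCNE2 for the interaction (-0.10 to 0.04). The cause was not tested. Of the single-gene values, 669 under the alternatives kept their direction and their side of the threshold, 3 were no longer called (CDK6 upon depletion) and 2 became called (MYC upon depletion without siNC replicate 2, 0.58, and CDKN2C as above). Part of the 669 could not have differed. No gene fell short of the filter, so that the fit with no minimum repeated the main fit. Leaving out a library of a group outside the comparison kept the log2 difference and could change only its p-value. The replicate numbers were shared by the groups, but deviations of same-numbered libraries correlated between -0.252 and 0.271, so that they were not taken as pairs. The replicate block left the member counts at 3, 2, 4, 1 and 0 and gave 2438, 630, 2711, 171 and 39 called genes in all. In a fit of the 4 libraries without and with TGFβ in siPHF13 cells, 157 of 13175 genes were called without a block and 241 with a replicate block whose numbers were crossed, and 1 of the 10 genes in both. Count models were not run for comparisons with the siPHF13 group. With 2 libraries a group, the standard error of CCNE2 was 0.12 on the log2 scale, and its differences between -0.27 and -0.34 did not pass the test.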

Other observations

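Of 13 genes of the turnover of these proteins, 1 was called upon depletion in each setting, against 18.4% of all genes without and 20.5% with TGFβ. This was FBXW7, the receptor of the ubiquitin ligase that marks cyclin E and MYC for destruction, which was higher, with means of 810.4 in siNC and 1384 in siPHF13 (0.77, adjusted p = 1.64e-05, limma) and of 777.7 and 1379 with TGFβ (0.83, adjusted p = 7.63e-06). No other gene of the 13 was called in any of the 4 comparisons. SKP2, the receptor for p27, gave -0.04 and 0.13 upon depletion (adjusted p = 0.697 and 0.228). Of 9 genes linked to quiescence and FOXO factors, 3 were called upon depletion without TGFβ and 5 with it, against the same shares of all genes. TXNIP, a brake on glucose uptake, rose from a mean of 227.1 to 746.6 upon depletion (1.71, adjusted p = 4.41e-07) and from 129.1 to 664.3 with TGFβ (2.35, adjusted p = 2.09e-08). PDK4 rose by 0.79 in treated cells (adjusted p = 0.00109) and the scarce FOXO4, with means between 26.2 and 107.8, was called higher in both settings (1.18 and 1.08, adjusted p = 0.0219 and 0.0309). FOXO1 fell by 0.94 and 1.28 (adjusted p = 0.0094 and 0.00108), and FOXO3 fell by 0.68 in treated cells (adjusted p = 1.23e-06). TGFβ lowered TXNIP (-0.81, adjusted p = 0.00116) and PDK4 (-1.10, adjusted p = 0.000354) in siNC cells and PDK4 in siPHF13 cells (-0.74, adjusted p = 0.0221).

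Among 11191 other genes with a mean of at least 100, those whose pattern over the 8 libraries was closest to each called gene, by the root mean square difference of centred log2 values, were SLC37A3 (0.068), IFNAR2 and SELM for CCND1, SEC13 (0.065), FKBP8 and SCAND1 for CCNE1, NSUN3 (0.034), CXorf23 and GJA3 for CDK6, ARHGEF40 (0.145), LIMS1 and SYNE1 for CDKN1A, and TYMS (0.063), ZNF367 and DEPDC1B for CDKN2C. ARHGEF40, the closest to CDKN1A, stood at 1225 and 1169 in siNC cells, 587.8 and 565.2 in siPHF13 cells, 2080 and 2131 in siNC cells with TGFβ and 1096 and 1045 in siPHF13 cells with TGFβ. TYMS, the closest to CDKN2C, stood at 2324 and 2474, 2054 and 1791, 1423 and 1462, and 1509 and 1856 in the same order.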
